A study of Mus musculus with 18 samples.

Results

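The collagen genes are the genes whose symbols are Col, a type number, the letter a and a chain number. In the deposited count table, 43 of 23337 gene symbols fit this pattern, and 40 of the 43 were among the 14892 genes that passed a filter on low counts. Col10a1, Col6a5 and Col28a1 did not pass it, with at most 0.233 CPM (counts scaled to the library's total) in any library, and entered no test. The 43 genes fall into 8 classes by the structure their chains build: 11 fibrillar, 6 type IV network, 3 short-chain network, 6 type VI, 9 fibril-associated, 2 multiplexin, 4 transmembrane and 2 others. RNA was sequenced from 18 libraries of mouse embryonic stem cells that were being differentiated into cardiomyocytes. The cell line was GLI1-FTA, its strain is given as A2Lox.cre, and doxycycline was used in it to overexpress GLI1, an activating transcription factor at the end of the Hedgehog pathway. The untreated controls were harvested on day 5 (D5, 4 libraries), D6 (3), D8 (2) and D12 (2). The cells that overexpressed GLI1 (GLI1 OE) had 500 ng/ml doxycycline for 24 hours between D5 and D6 and were then washed, and were harvested on D6 (3 libraries), D8 (2) and D12 (2). The D5 and D6 cells are labelled cardiac progenitors and the later ones cardiomyocytes. No control received the drug, so doxycycline and GLI1 cannot be told apart. All libraries came from 1 line, and nothing in the labels says that replicates were separate cultures, so p-values measure the spread between these libraries, which may be technical.

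Collagens are proteins in which chains with a repeating glycine motif wind into a triple helix. Fibrillar collagens (types I, II, III, V, XI, XXIV and XXVII) assemble into the fibres that give connective tissue its tensile strength, and in the heart types I and III are made mainly by fibroblasts. Type IV collagen forms the sheet of every basement membrane, type VI forms beaded microfilaments next to cells, and the fibril-associated types decorate the surface of fibres. In cardiac development collagens form the basement membranes of muscle and vessels and the matrix of the valves.

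The type IV genes lie in head-to-head pairs, with each pair sharing the stretch from which both are transcribed in opposite directions: Col4a1 with Col4a2, Col4a3 with Col4a4, and Col4a5 with Col4a6. The RefSeq table of sequences from 250 bases before to 50 after each annotated start (build GRCm38.p6) held 35 of the 43 genes. By it the starts of Col4a1 and Col4a2 are 21 bases apart, and those of Col4a6 and Col4a5 on chromosome X are 1343 bases apart. The sequences before the starts of Col4a5 (chrX:141475169-141475369, plus strand) and Col4a6 (chrX:141474096-141474326, minus strand) are shown because these genes had the same direction with GLI1 on each day below. That trait is not particular to them. Col8a1 had it too, and the group means of Col1a1, Col5a1, Col6a3 and Col11a2, among others, also kept the same direction. The share of all genes with this trait was not counted. That of Col3a1 (chr1:45311288-45311537, plus strand) is shown because Col3a1 had the highest level of any collagen gene at D12. Each is printed 5′ to 3′ and ends before the first annotated exon, and capitals mark a match to CCAAT or its complement, a box common in promoters.
Col4a5: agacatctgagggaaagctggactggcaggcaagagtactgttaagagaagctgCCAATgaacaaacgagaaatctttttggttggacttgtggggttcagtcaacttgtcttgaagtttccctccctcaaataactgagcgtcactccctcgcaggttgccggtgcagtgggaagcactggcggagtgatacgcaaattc
Col4a6: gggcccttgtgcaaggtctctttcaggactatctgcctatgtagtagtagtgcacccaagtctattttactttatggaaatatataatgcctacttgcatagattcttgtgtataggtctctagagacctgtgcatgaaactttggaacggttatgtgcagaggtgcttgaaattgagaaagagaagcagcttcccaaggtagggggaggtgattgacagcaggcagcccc
Col3a1: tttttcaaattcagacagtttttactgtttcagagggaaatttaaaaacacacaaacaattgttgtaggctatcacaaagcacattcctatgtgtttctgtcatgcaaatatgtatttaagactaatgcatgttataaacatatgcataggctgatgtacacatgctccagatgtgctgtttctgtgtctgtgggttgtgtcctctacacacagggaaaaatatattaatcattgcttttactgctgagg
Each motif was searched on both strands of all 32851 windows. The site best known for GLI factors, GACCACCCA, was in the windows of 0 of the 35 collagen genes and in 0.253% of all windows. The GC box bound by Sp factors, GGGCGG, was in those of 22 collagen genes and in 35.7% of all windows. The box CCAAT was in those of 13 collagen genes and in 37.4% of all windows, and its first letters can overlap the end of the GLI site. The collagen counts are of genes, which had 38 windows in all, while the shares are of windows, so the 2 are unlike measures. These counts describe letters in short windows, and the build behind the read counts is not given in the sources used here.

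Each library held 18470785 to 26184339 counts. Gli1 itself stood at 785 to 1051 CPM in the D6 GLI1 OE libraries and at 6.84 to 21.4 CPM in the D6 controls, and by D8 and D12 it was at 0.752 to 1.45 CPM in every library. Cardiomyocyte markers (Tnnt2, Myh6, Myl7, Actn2, Ttn and Nkx2-5) were present in every library but unevenly, with a summed level from 654 CPM in D8 GLI1 OE library 18 to 8803 CPM in D8 control library 13. The D6 libraries 11 and 12 differed most from the other D6 libraries of their own condition by chi-square per gene between counts. It was 33.0 and 41.1 for control 11 against 16.0 between the other controls. For GLI1 OE library 12 it was 35.5 and 29.7 against 14.2 between the others. Their summed cardiomyocyte markers were 4920 and 2168 CPM, against 2027 to 3367 in the other controls and 667 to 694 in the other GLI1 OE libraries. Among the D5 libraries, 1 and 2 were close to each other, with a chi-square of 6.70 per gene between their counts where the remaining D5 pairs had 49.1 to 91.6 and replicates of the other groups at least 14.2. That is above sampling noise, so each was counted, and with libraries 1 and 2 summed as 1 sample the D5 to D12 calls below became 28 higher and 2 lower. In these bulk samples, fewer cells of a type and less RNA per cell cannot be told apart.

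**Figure D1:**
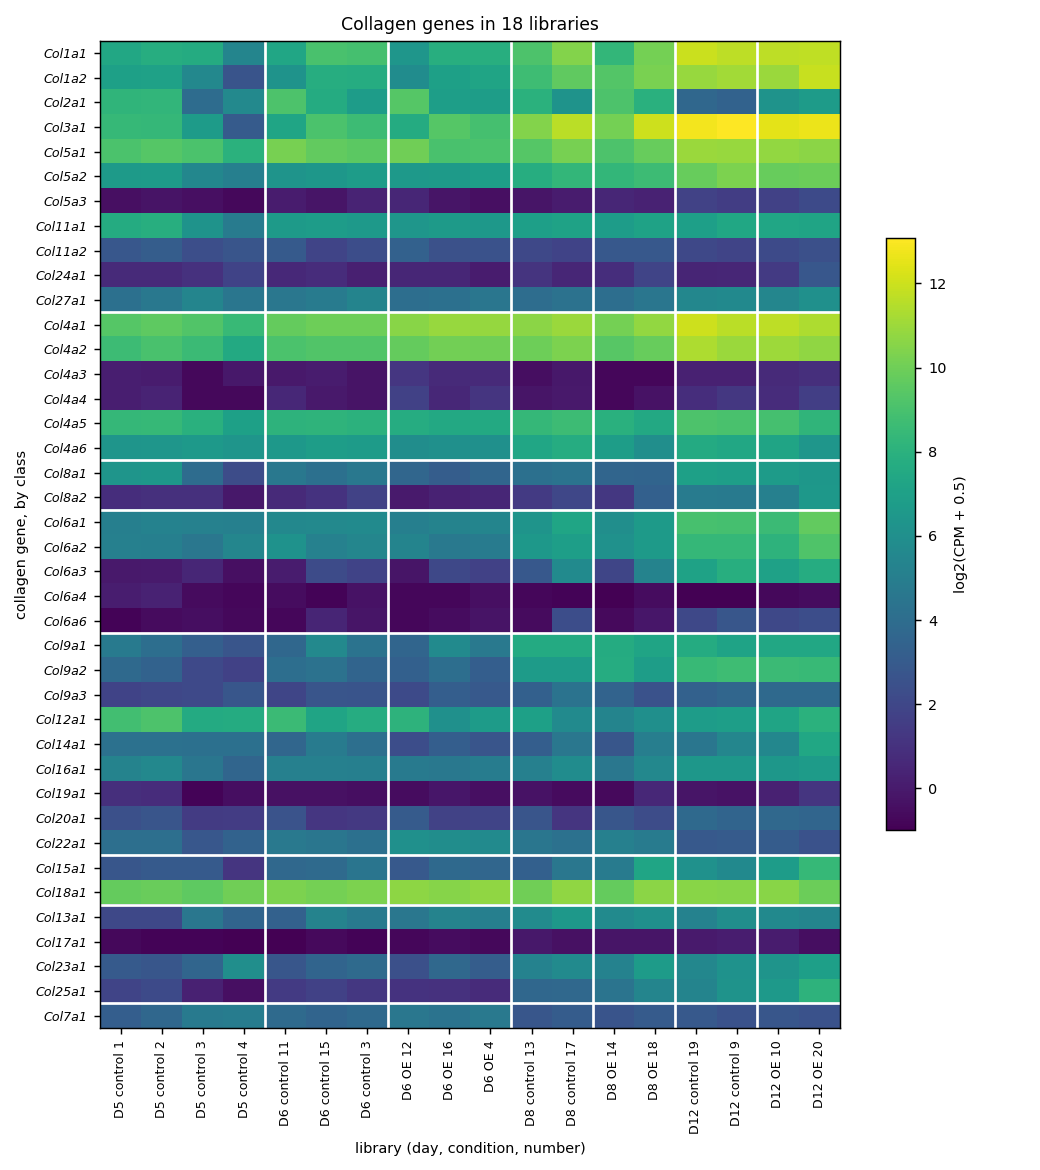
Level of the 40 tested collagen genes (rows, by class) in each of the 18 libraries (columns, by day and condition) as log2(CPM + 0.5). Col1a1, Col3a1, Col4a1 and Col6a1 are brightest at D12, while Col2a1 is dark in the D12 controls at 10.4 and 12.7 CPM.

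Collagen RNA took a larger mean share of the control libraries on each later day. The summed level of all 43 genes was 4171 ± 1268 CPM (SD, n = 4) at D5, 6053 ± 124 (n = 3) at D6, 11137 ± 3549 (n = 2) at D8 and 27197 ± 126 (n = 2) at D12. Between D5 and D12, 27 of the 40 tested genes rose and 6 fell by edgeR's quasi-likelihood test with Benjamini-Hochberg adjustment (adjusted p under 0.05). Over all genes tested, 32.2% rose and 34.3% fell in that comparison, and 66.5% were called. The collagen counts include Col6a4, which passed the low-count filter only through D5 libraries, and Col17a1, which passed it only through D12 libraries. The D5 and D12 values did not overlap for 36 of the 40 genes, 30 higher and 6 lower at D12, against 73.0% of all genes (35.8% and 37.2%), and 33 had an unadjusted p under 0.05 (69.4% of all genes). The median log2 fold change of the 40 genes was 1.78, against -0.04 over all genes. Leaving out 1 library left between 25 and 33 collagen genes called, and leaving out either D12 control library, 9 or 19, left 25. The genes that fell became 2 without D5 library 1 or 2 and 1 without D12 control library 9 or 19.

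Per length, in TPM (reads divided by gene length and scaled to a common total) computed from gene lengths implied by the deposited values, Col18a1 was the highest collagen at D5 (394 TPM on average), ahead of Col4a1 (201) and Col5a1 (132). At D12 the order was Col3a1 (3570 ± 566 TPM, SD, n = 2), Col1a1 (1887 ± 169), Col4a1 (1352 ± 186), Col1a2 (1001 ± 164) and Col4a2 (895 ± 145). The levels of Col1a2 and Col4a2 differed by less than their spread, and with annotated exon lengths Col1a2 took place 7, while Col3a1, Col1a1 and Col4a1 stayed in places 1 to 3.

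Among the 11 fibrillar genes 7 rose between D5 and D12 and 2 fell. Col3a1, the chain of type III fibres of soft tissues, stood at 342, 335, 106 and 7.85 CPM in D5 libraries 1 to 4, at 151, 550 and 396 in D6 controls 11, 15 and 3, at 1423 and 3094 in D8 controls 13 and 17, and at 7309 and 8637 in D12 controls 19 and 9, the order used for every gene below. All D12 values lay above all earlier ones, while D5 library 4 was far below the other D5 libraries. Its log2 fold change over the whole interval was 5.33 ± 0.99 (SE, adjusted p = 0.000308). Col1a1, the main chain of type I fibres, had 170, 215, 203 and 42.6 CPM at D5, 160, 530 and 488 at D6, 567 and 1430 at D8, and 3919 and 3258 at D12. Its partner Col1a2 went from 130, 135, 46.2 and 5.74 CPM at D5 through 74.8, 221 and 207 at D6 and 410 and 806 at D8 to 1891 and 2253 at D12. Both rose over the interval, with log2 fold changes of 4.51 ± 0.67 and 4.71 ± 0.83, and again D5 library 4 was lowest. Col5a1, Col5a2 and Col5a3, whose type V chains set the width of fibres, rose by log2 fold changes of 1.97, 3.90 and 3.49. Col5a3 was the least abundant of them, at 0.127 to 0.322 CPM in the D5 libraries, 0.374 to 0.808 at D6, 0.354 and 0.567 at D8, and 2.92 and 2.48 at D12. Col27a1 rose by 0.86, a call lost without D12 control library 9 or 19.

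Col2a1, the cartilage collagen that cells of the early heart and notochord also make, went the other way. It had 293, 309, 15.2 and 49.3 CPM at D5, 573, 199 and 110 at D6, 251 and 75.8 at D8, and only 12.7 and 10.4 at D12. Both D12 values were below every earlier one, and its log2 fold change was -3.85 ± 1.30 (adjusted p = 0.0179), a call lost without D12 control library 9 or 19 (adjusted p up to 0.106 over the leave-one-out fits). Col11a2, a chain of cartilage fibres, fell from 6.50, 8.46, 4.73 and 6.08 CPM at D5 to 3.71 and 3.18 at D12, with 7.44, 3.13 and 4.51 at D6 and 3.72 and 3.01 at D8. That fall, at -0.90 ± 0.36 (adjusted p = 0.0401), was lost without D5 library 1 or 2 or either D12 control. Col11a1 and Col24a1 had log2 fold changes of 0.13 and -0.93, neither past the test. Summed chondrogenic markers were 81.8 to 174 CPM at D5 and 42.9 and 53.4 CPM in the D12 controls, and 3 of their 4 tested genes fell; the part of such cells in these values was not tested.

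All 6 type IV genes had positive log2 fold changes between D5 and D12, and 5 rose. Col4a1 and Col4a2, the chains of the common basement membrane, ran side by side. Col4a1 had 655, 761, 610 and 356 CPM at D5, 851, 1001 and 998 at D6, 1567 and 2010 at D8, and 4051 and 3145 at D12. Col4a2 had 405, 517, 392 and 185 CPM at D5, 542, 602 and 608 at D6, 1009 and 1253 at D8, and 2645 and 1984 at D12. The groups of successive days did not overlap for either gene, and the log2 fold changes were 2.60 ± 0.25 and 2.63 ± 0.28 (adjusted p = 5.69e-07 and 1.63e-06). Col4a5 and Col4a6, whose chains form networks in smooth muscle and some epithelia, rose by 1.06 and 1.09. Col4a4 rose by 1.89 from levels under 1 CPM, a call lost without D5 library 3 or 4 or D12 control library 9, and its partner Col4a3, at 0.72, did not pass the test.

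In type VI, 4 of 5 tested genes rose and 1 fell. Col6a3, the large chain that completes the type VI molecule, was nearly silent at D5, with 0.479, 0.524, 0.953 and 0.253 CPM. It reached 0.558, 4.11 and 3.06 CPM at D6, 6.72 and 53.0 at D8, and 138 and 229 at D12. Its log2 fold change of 8.36 ± 1.09 (adjusted p = 1.27e-05) was the largest rise of any collagen gene. Col6a1 had 33.9, 37.0, 35.6 and 34.8 CPM at D5, 47.6, 48.2 and 52.0 at D6, 79.0 and 154 at D8, and 495 and 477 at D12, and had the smallest adjusted p of all collagen genes (5.49e-08, log2 fold change 3.78 ± 0.28). Col6a2 went from 34.6, 32.8, 23.3 and 43.5 CPM at D5 through 72.7, 36.0 and 43.3 at D6 and 89.2 and 116 at D8 to 328 and 334 at D12. Col6a1 and Col6a2 thus began at levels well above Col6a3 in CPM at D5. Col6a6 had 0.0399 to 0.207 CPM at D5, 0.0930, 0.888 and 0.383 at D6, 0.177 and 4.53 at D8, and 3.71 and 6.31 at D12. Col6a4 fell from 40 counts over the D5 libraries to 0 over the D12 controls, at least 5.28-fold lower when a floor of 3 counts over the group is used, and its call was lost without either D12 control. Col6a4 passed the low-count filter only through D5 libraries 1 and 2, at 0.598 and 0.766 CPM, with at most 0.298 CPM elsewhere. Its fall is thus counted from the group that let it be tested, and the call is no support for a change.

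Among the 9 fibril-associated genes 5 rose and 2 fell between D5 and D12. Col9a1 and Col9a2, chains of the collagen that coats type II fibres, rose while Col2a1 fell. Col9a2 had 13.6, 10.1, 3.81 and 2.83 CPM at D5, 16.6, 19.2 and 10.9 at D6, 105 and 106 at D8, and 364 and 409 at D12 (log2 fold change 5.67 ± 0.50, adjusted p = 2.94e-07). Col9a1 had 26.4, 16.6, 9.04 and 6.08 CPM at D5, 12.6, 48.3 and 20.4 at D6, 193 and 193 at D8, and 199 and 145 at D12. Col9a1 was thus at D8 already within its D12 range, whereas Col9a2 rose again after D8. Col9a3, Col16a1 and Col20a1 rose by 1.40, 1.52 and 1.66, the last lost without D12 control library 19. Col12a1, which binds type I fibres, had 449, 556, 195 and 200 CPM at D5, 388, 150 and 214 at D6, 128 and 52.4 at D8, and 110 and 117 at D12, a fall of -1.63 ± 0.64 (adjusted p = 0.0371). Without D5 library 1 or 2, or either D12 control, that call was lost, and so was the small fall of Col22a1 (-0.80 ± 0.33, adjusted p = 0.0421). Col14a1 and Col19a1 did not pass the test.

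The multiplexins Col15a1 and Col18a1, basement membrane collagens that carry sugar chains, rose by 3.39 and 0.73, the second call lost without D12 control library 19. Col18a1 was high throughout, at 854, 923, 771 and 1037 CPM at D5, 1269, 1117 and 1238 at D6, 1057 and 1702 at D8, and 1532 and 1445 at D12. Of the transmembrane genes Col13a1 (2.24), Col17a1 (3.34) and Col25a1 (4.80) rose, and Col23a1 did not pass. Col17a1 held only 5 counts over the D5 libraries and 22 over the D12 controls, and passed the low-count filter only through D12 libraries. Its rise is thus counted towards the group that let it be tested, and the call is no support for a change. Without D12 control library 9 the call of Col13a1 was lost. Col25a1, which is expressed by muscle and neurons, had 3.15, 3.95, 0.746 and 0.253 CPM at D5, 2.09, 2.80 and 1.91 at D6, 12.4 and 13.1 at D8, and 39.6 and 74.5 at D12. Col8a2, a short-chain collagen, rose from 1.32, 1.45, 1.41 and 0.422 CPM at D5 through 1.07, 1.59 and 2.93 at D6 and 2.08 and 3.53 at D8 to 28.6 and 27.2 at D12. Its partner Col8a1 had 79.2, 85.4, 15.1 and 4.30 CPM at D5, 24.7, 17.9 and 24.0 at D6, 18.1 and 19.8 at D8, and 126 and 120 at D12, and did not pass between D5 and D12. Col7a1, which anchors basement membrane to the tissue beneath, fell from 8.78, 12.3, 26.3 and 29.6 CPM at D5 to 14.2, 11.02 and 13.4 at D6, 6.41 and 8.15 at D8, and 7.27 and 5.41 at D12 (-1.60 ± 0.41, adjusted p = 0.00336).

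**Figure D2:**
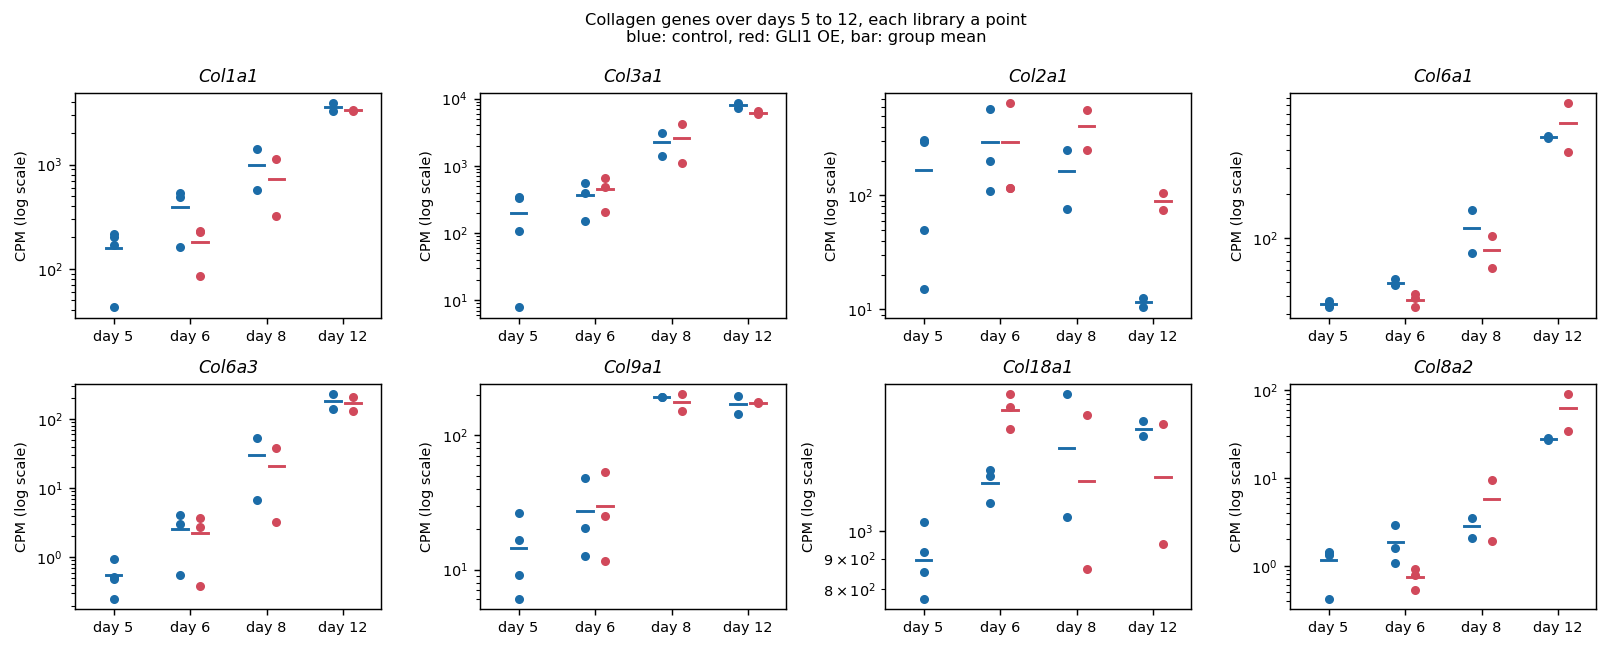
Level of 8 collagen genes by day, in CPM on a log axis, with each library as a point, controls in blue, GLI1 OE in red and the group mean as a bar. Col3a1, Col1a1, Col6a1 and Col6a3 are highest at D12, Col2a1 is lowest in the D12 controls at 10.4 and 12.7 CPM, and Col9a1 is already near its D12 level at D8.

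From D5 to D6, 0 of 40 collagen genes passed edgeR's test, where 18.4% of all genes did (8.39% higher and 9.99% lower), and 9 had an unadjusted p under 0.05, where 31.4% of all genes did. The D6 values lay above all D5 values for 8 genes (13.9% of all genes) and below them for 0 (15.2%), or 29.0% of all genes in either direction. DESeq2 called 5 in that step, all higher, namely Col4a1, Col4a2, Col5a1, Col15a1 and Col22a1, and limma-voom called Col4a1 and Col22a1, all picked after their values were seen. These tools called 22.3% and 18.6% of all genes. Leaving out 1 D5 library gave between 1 and 3 calls: Col9a2 and Col22a1 without library 1, Col4a1, Col4a2 and Col22a1 without library 2, Col13a1 without library 3, all higher, and Col8a1, lower, without library 4. From D6 to D8, 12 rose and 0 fell, against 17.3% and 17.5% of all genes (34.8% in all): Col4a1, Col4a2, Col4a6, Col5a2, Col6a1, Col6a2, Col6a3, Col9a1, Col9a2, Col9a3, Col17a1 and Col25a1. The largest of these were Col6a3 (log2 fold change 3.53), Col9a1 (2.83), Col9a2 (2.76) and Col25a1 (2.49). Col17a1 held 4 counts over the D6 controls and 16 over the D8 controls, and its call was lost in 4 of 5 leave-one-out fits. Without D8 control library 17, which was above library 13 for Col1a1, Col3a1, Col6a1 and Col6a3, the count of 12 became 2, and without D6 control library 11 it became 7, of which 1 was lower. The groups did not overlap for 20 genes higher and 3 lower, against 64.1% of all genes (32.0% and 32.1%), and 19 had an unadjusted p under 0.05 (45.7% of all genes). From D8 to D12, 11 rose and 2 fell, against 16.9% and 19.4% of all genes (36.3% in all). Col8a2 (3.31), Col8a1 (2.70), Col5a3 (2.53) and Col25a1 (2.16) rose most, and Col2a1 (-3.82) and Col22a1 (-1.48) fell. Without D8 control library 13 the count of 13 became 8, and the calls of Col2a1 and Col8a1 were lost whichever of the 4 libraries was left out. The groups did not overlap for 23 genes higher and 4 lower, against 72.4% of all genes (34.7% and 37.7%), and 19 had an unadjusted p under 0.05 (46.4% of all genes).

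The enzymes and partners of collagen moved over the same days. Of 17 genes for folding and modifying chains, 13 rose and 2 fell between D5 and D12, with a median log2 fold change of 1.19 (-0.04 over all genes). For these lists too, 32.2% of all genes rose and 34.3% fell. They include P4ha1 (2.86) and Plod1 (2.39), which hydroxylate proline and lysine, and the chaperone Serpinh1 (0.90). Of 13 processing and crosslinking genes 8 rose and 2 fell, with Lox, the enzyme that crosslinks fibres, at 7.28 ± 0.57 (adjusted p = 1.05e-07). Of 12 basement membrane partners 9 rose, among them Nid1, which links laminin to type IV collagen (3.61), and Lama1 fell. All 4 called breakdown genes of 5 tested rose, and 4 of 7 receptors rose. Markers of fibroblasts and mesenchyme, 5 of whose 7 genes rose, summed to 113 to 268 CPM at D5 and 921 and 1276 CPM in the D12 controls. Endothelial markers, 4 of whose 5 genes rose, summed to 70.2 to 302 CPM at D5 and 396 and 563 CPM in the D12 controls. The part of either cell type in the collagen rise was not tested.

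While GLI1 was induced at D6, Col22a1 was higher and the type IV genes split by pair. Col22a1, a fibril-associated collagen known from junctions of muscle and tendon, was the 1 collagen gene called of 40, where 4.14% of all genes were called (3.02% higher and 1.12% lower). At an unadjusted p under 0.05 there were 9 collagen genes, against 15.8% of all genes, and the groups did not overlap for 6 higher (13.2% of all genes) and 9 lower (13.8%), 27.0% in either direction. Col22a1 had 25.3, 22.3 and 18.1 CPM in controls 11, 15 and 3 and 66.4, 59.8 and 52.8 in GLI1 OE libraries 12, 16 and 4. Every GLI1 OE library was above every control, and the log2 fold change was 1.45 ± 0.29 (SE, adjusted p = 0.0107). The call was lost without control library 3 or 15 (adjusted p up to 0.0681), while the log2 fold change stayed between 1.32 and 1.56. Leaving out both libraries 11 and 12 also left 0 collagen genes called.

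Adjacent library numbers paired the D6 libraries, so ratios within pairs show the other genes with less spread between libraries. Of the 40 genes, 13 were higher in the GLI1 OE library of all 3 pairs, 19 lower and 8 mixed. That is 80% with 1 direction, against 60.9% of all genes, of which 28.1% were higher and 32.7% lower. With the D6 libraries alone, 10 of 36 collagen genes passed edgeR's test, 6 higher (Col4a1, Col4a2, Col4a3, Col7a1, Col18a1 and Col22a1) and 4 lower (Col4a5, Col4a6, Col8a1 and Col14a1), where 9.19% of all genes passed (5.48% higher and 3.71% lower). With the pair as a block in that D6 fit, 25 of 36 passed, 10 higher and 15 lower, where 33.6% of all genes passed (16.6% higher and 17.0% lower). DESeq2 called 4 collagen genes, Col4a1, Col4a3, Col4a6 and Col22a1, and 6.92% of all genes. With the block but all 18 libraries, 1 passed, where 4.48% of all genes did. The values that follow are from these D6 fits with the block where so named, and the fit of all libraries is given beside each; the block fit was added after seeing the data.

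**Figure D3:**
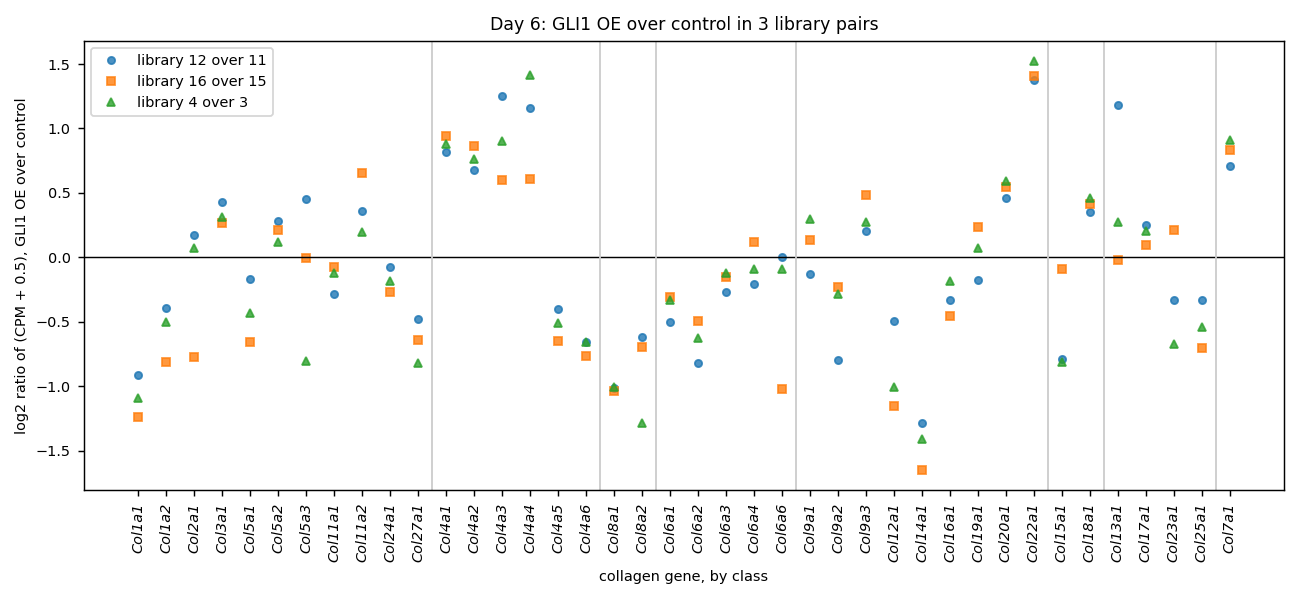
Log2 ratio of (CPM + 0.5), GLI1 OE over control, in 3 pairs of D6 libraries (symbols) for the 40 tested collagen genes by class, with 0 as the line of no difference. Col4a1 to Col4a4 lie above 0 in all 3 pairs, Col4a5 and Col4a6 below, and Col22a1 is at 1.37 to 1.52.

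Of the 6 type IV genes 4 were higher and 2 lower in all 3 pairs, with none called over all libraries. Col4a1 had 851, 1001 and 998 CPM in controls 11, 15 and 3 and 1497, 1926 and 1833 in GLI1 OE libraries 12, 16 and 4, and Col4a2 had 542, 602 and 608 against 866, 1095 and 1031. Both groups were fully apart for both genes. Their log2 fold changes were 0.88 ± 0.24 (adjusted p = 0.0586) and 0.77 ± 0.27 (adjusted p = 0.152) over all libraries, and 0.89 ± 0.04 and 0.77 ± 0.04 with the block at D6, where both passed. Col4a3 and Col4a4, the chains of the kidney and inner ear membrane, were far less abundant. Col4a3 had 0.465, 0.561 and 0.340 CPM in controls and 1.80, 1.11 and 1.07 with GLI1, and Col4a4 0.977, 0.467 and 0.340 against 2.80, 0.971 and 1.74. They were higher in all 3 pairs, and their all-library adjusted p-values were 0.0946 and 0.245. Col4a5 had 277, 285 and 265 CPM in controls and 209, 182 and 186 with GLI1, and Col4a6 had 91.8, 114 and 104 against 58.2, 67.0 and 65.8. Both were lower in all 3 pairs without overlap, with log2 fold changes of -0.52 ± 0.28 and -0.70 ± 0.22 (adjusted p = 0.414 and 0.114) over all libraries. With the block at D6 they were -0.51 ± 0.05 and -0.69 ± 0.05, and both passed.

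**Figure D4:**
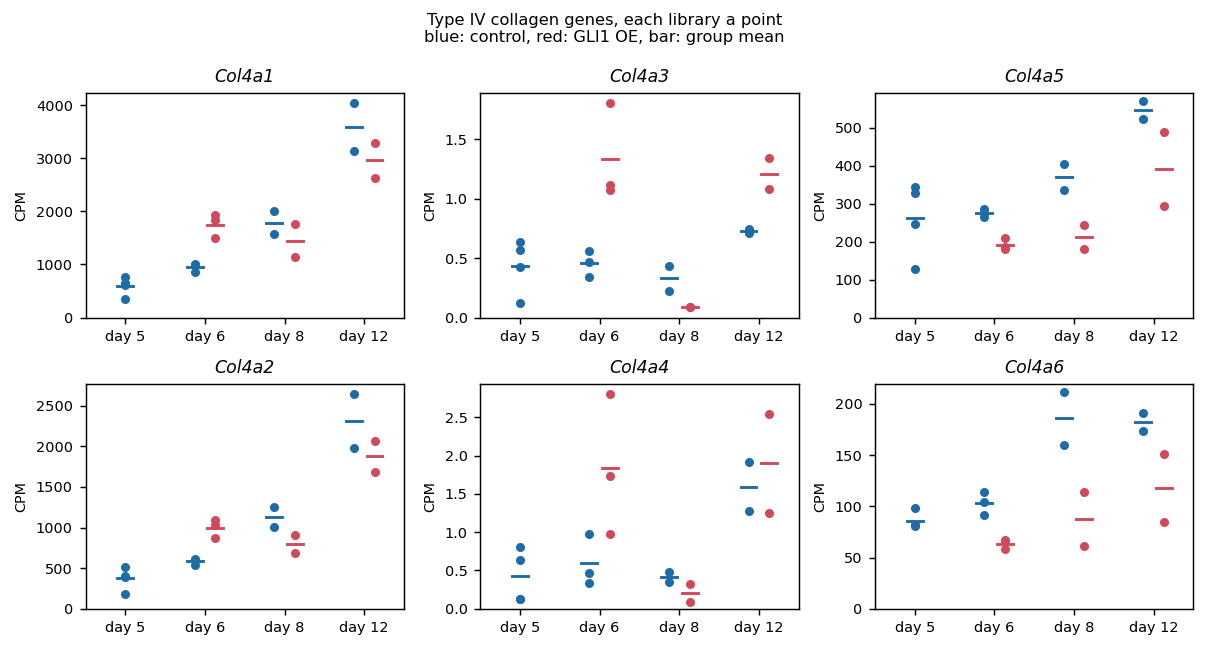
Level in CPM, from 0, of the 6 type IV genes by day, with each library as a point, controls in blue, GLI1 OE in red and group means as bars. At D6 Col4a1 to Col4a3 lie above their controls and Col4a5 and Col4a6 below, and at D8 all 6 red means lie below the blue ones.

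Of the 11 fibrillar genes, 8 had log2 fold changes below 0 at D6, with none called over all libraries. Col1a1 was at 160, 530 and 488 CPM in controls 11, 15 and 3 and 84.9, 224 and 228 with GLI1, ratios of -0.91, -1.24 and -1.09 on the log2 scale in the 3 pairs. Col1a2 had 74.8, 221 and 207 CPM against 57.0, 126 and 146. Col3a1 went the other way, at 151, 550 and 396 CPM against 204, 663 and 492. Over all libraries these 3 log2 fold changes were -1.13 ± 0.63, -0.61 ± 0.78 and 0.31 ± 0.90 and did not pass, and the groups overlapped for each. With the block at D6 each passed, at -1.08 ± 0.07, -0.57 ± 0.09 and 0.34 ± 0.04. Col2a1, at 573, 199 and 110 CPM in controls and 648, 116 and 115 with GLI1, was mixed. Col8a1, a vessel wall collagen, had 24.7, 17.9 and 24.0 CPM against 12.01, 8.46 and 11.7, without overlap, and a log2 fold change of -1.05 ± 0.71 (adjusted p = 0.557) over all libraries. Col14a1, which regulates fibre growth, had 11.8, 28.3 and 17.0 CPM against 4.56, 8.69 and 6.12.

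The type VI genes had a summed level of 103 ± 16.3 CPM in D6 controls and 72.0 ± 3.43 with GLI1 (SD, n = 3 each). Col6a1 had 47.6, 48.2 and 52.0 CPM against 33.6, 38.9 and 41.2, without overlap, and Col6a2 72.7, 36.0 and 43.3 against 40.9, 25.4 and 27.9. Their all-library adjusted p-values were 0.576 and 0.32. Col6a3 had 0.558, 4.11 and 3.06 CPM against 0.380, 3.65 and 2.77 and passed in no D6 fit. Col18a1 had 1269, 1117 and 1238 CPM against 1621, 1490 and 1700, and Col7a1 14.2, 11.02 and 13.4 against 23.5, 20.0 and 25.7, each higher without overlap. Their log2 fold changes over all libraries were 0.41 ± 0.22 and 0.84 ± 0.36 (adjusted p = 0.42 and 0.252), and both passed with the D6 libraries alone. The summed level of all collagens was 6053 ± 124 CPM in controls and 7028 ± 39.7 with GLI1. The type IV sum was 1914 ± 132 and 3008 ± 332 CPM, the multiplexin sum 1224 ± 81.1 and 1614 ± 105, and the fibrillar sum 2359 ± 184 and 1961 ± 253.

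In the authors' deposited table for D6, 12 of 41 collagen genes listed had an adjusted p under 0.05, 6 higher and 6 lower, where 12.6% of all its genes did. The authors' deposited table gives Col4a1 a log2 fold change of 0.89 and Col4a6 one of -0.69. The other genes of the pathway were read in edgeR's all-library test at D6, which called 4.14% of all genes. Of 17 folding genes only P3h2, a prolyl hydroxylase of type IV chains, was called, at 1.23. Adamts3, which trims procollagen, was higher (1.93 ± 0.22, adjusted p = 0.000122), and Loxl1, a crosslinking enzyme, was lower (-1.32), these being the 2 called of 13 processing genes. None of 5 breakdown genes was called. Of 12 basement membrane partners Lama2 and Lama3, laminin chains, were higher (1.57 and 3.04), and of 7 receptors Itga10 and Ddr1 were lower (-1.15 and -0.81). Beside these, summed cardiac progenitor markers were 636 to 830 CPM in the D6 controls and 368 to 405 with GLI1, without overlap, and summed smooth muscle markers 4026 to 6239 against 2013 to 4412. Summed cardiomyocyte markers were 2027 to 4920 CPM in the D6 controls and 667 to 2168 with GLI1, and summed parietal and visceral endoderm markers 17.5 to 22.4 against 40.8 to 62.9. Of the endoderm genes Afp, Ttr and Apoa1 were at most at 1.39 CPM in any D6 library, and Thbd, which endothelium also expresses, was at 8.93 to 11.4 against 26.6 to 45.2. No gene of these 4 lists passed the test, and the part of these cells in the type IV values was not tested. Of the chondrogenic markers 1 of 4 tested genes was called higher at D6. Their summed levels were 118 to 259 CPM in controls and 195 to 243 with GLI1. No marker of fibroblasts and mesenchyme, endothelium, neural, epithelial or pluripotent cells was called.

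At D8, 2 days after washout, edgeR called 0 of 40 collagen genes, and 0.00% of all genes, and DESeq2, which called 0.269% of all genes, and limma-voom also called 0 collagens. At an unadjusted p under 0.05 there were 6 of 40, where 5.95% of all genes were. Col4a3, Col4a5, Col4a6 and Col6a6 had lower means with GLI1, and Col11a2 and Col15a1 higher ones. The groups of Col6a6 overlapped, at 0.177 and 4.53 CPM in controls 13 and 17 against 0.139 and 0.409 in GLI1 OE libraries 14 and 18. Col4a3 held only 15 counts over the controls and 4 over the GLI1 OE libraries. All 6 type IV genes had negative log2 fold changes at D8, with a median of -0.90. That median includes Col4a3 and Col4a4, which were near the floor. Col4a4 held 19 counts over the controls and 9 over the GLI1 OE libraries. With the D8 libraries alone, only 4 type IV genes passed the low-count filter. Col4a6 had 160 and 212 CPM in controls 13 and 17 and 114 and 61.1 in GLI1 OE libraries 14 and 18 (-1.09 ± 0.28, adjusted p = 0.489). Col4a1, higher with GLI1 at D6, had 1567 and 2010 CPM against 1137 and 1767, and Col4a2 1009 and 1253 against 689 and 910. In the fit without library 14, where the GLI1 OE side rests on library 18 alone, the log2 fold change of Col4a6 was -1.62. The difference between the D8 and D6 effects was tested itself, and 0 of 40 collagen genes passed, where 0.631% of all genes did (0.0672% higher and 0.564% lower), and 6 had an unadjusted p under 0.05 (7.02% of all genes). Type IV genes, with the low-count Col4a3 and Col4a4 included, had a median difference of -1.23 on the log2 scale.

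Other D8 values varied between the 2 libraries of the GLI1 OE group. Col15a1 had 9.47 and 23.0 CPM in controls and 28.8 and 156 in GLI1 OE libraries 14 and 18, a log2 fold change of 2.51 ± 0.78 (adjusted p = 0.663). The GLI1 OE values were higher without overlap, and library 18 was far above library 14. Col25a1 had 12.4 and 13.1 CPM against 20.8 and 41.4. Library 18 also had the lowest summed cardiomyocyte markers of all 18 libraries, at 654 CPM against 8005 in library 14, and summed endoderm markers of 54.5 against 9.53 CPM, and the part of that difference in these values was not tested. For the main fibrillar genes the 2 groups overlapped: Col1a1 had 567 and 1430 CPM in controls and 320 and 1124 with GLI1, Col1a2 410 and 806 against 640 and 1234, and Col3a1 1423 and 3094 against 1106 and 4134. Col2a1 had 251 and 75.8 CPM against 558 and 248. Between adjacent library numbers, 14 over 13 and 18 over 17, the log2 ratios were -0.82 and -0.35 for Col1a1, 0.64 and 0.61 for Col1a2, and 1.15 and 1.70 for Col2a1. By these ratios 12 collagen genes were higher in both, 17 lower and 11 mixed, so 72.5% had 1 direction against 57.6% of all genes (28.8% higher and 28.9% lower), and with only 2 pairs the pairing at D8 is not established. Col6a1 had 79.0 and 154 CPM against 62.1 and 103, Col6a2 89.2 and 116 against 68.8 and 100.1, Col6a3 6.72 and 53.0 against 3.29 and 38.2, and Col18a1 1057 and 1702 against 863 and 1572. In each of these genes the libraries with higher numbers, 17 and 18, were the higher of their group, except for Col2a1, where they were the lower.

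At D12 edgeR again called 0 of 40 collagen genes and 0.00% of all genes, DESeq2 and limma-voom called 0 collagens, and 6 of 40 had an unadjusted p under 0.05, where 5.64% of all genes did. They were Col2a1, Col14a1, Col15a1, Col24a1 and Col25a1, which were higher, and Col4a6, which was lower. Col2a1 was at 12.7 and 10.4 CPM in controls 19 and 9 and at 74.2 and 105 in GLI1 OE libraries 10 and 20, so both GLI1 OE values lay above both controls by several-fold. Its log2 fold change was 2.96 ± 1.32 (adjusted p = 0.855). In the authors' deposited table for D12 it is 3.12 with an adjusted p of 3.54e-22, from the authors' own fit, which was not rerun here. With the D12 libraries alone it was 2.97 ± 0.24 (edgeR adjusted p = 0.38), and 0 of 39 collagen genes passed. The log2 fold changes were thus close and the adjusted p-values far apart, and the cause of that gap was not tested. Leaving out 1 library gave log2 fold changes from 2.69 to 3.19. The authors' deposited table calls 4 of 37 collagen genes listed, all higher: Col2a1, Col15a1, Col24a1 and Col25a1, where 0.523% of all its genes were called. The authors' deposited table for D8 calls 0 of 33, where 0.0727% of all genes were called.

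The other 4 genes were highest in library 20. Col15a1 had 70.4 and 50.5 CPM in controls 19 and 9 and 111 and 340 in GLI1 OE libraries 10 and 20. Col25a1 had 39.6 and 74.5 against 98.9 and 272, Col24a1 0.849 and 0.909 against 2.10 and 6.57, and Col14a1 22.6 and 43.1 against 45.6 and 170. In each, library 20 was the highest of the 4 and library 10 lay nearer to the controls. Library 20 also had the lowest summed cardiomyocyte markers of the D12 libraries, 2117 CPM against 3472 to 8444, and the highest summed endoderm markers of any library, 71.4 CPM, and their part in these values was not tested. Col4a6 was at 191 and 174 CPM against 151 and 84.3, and Col4a5 at 570 and 524 against 488 and 293, again lowest in library 20. Thus Col4a5 and Col4a6 were lower with GLI1 at D6, D8 and D12 without overlap of the groups. Col4a5 and Col4a6 passed at D6 in the fits of the D6 libraries alone, with and without the block. DESeq2 called only Col4a6 there, and neither gene passed in edgeR's fit of all libraries on any day. At D8 the groups did not overlap for 6 collagen genes higher (17.0% of all genes) and 6 lower (15.2%), 32.2% of all genes in either direction. At D12 they did not overlap for 13 higher (17.9% of all genes) and 5 lower (16.4%), 34.3% in either direction.

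None of the most abundant genes passed at D12. Col1a1 had 3919 and 3258 CPM in controls and 3267 and 3372 with GLI1, Col1a2 1891 and 2253 against 1985 and 3757, and Col3a1 7309 and 8637 against 5820 and 6462. Col4a1 had 4051 and 3145 CPM against 3296 and 2625, and Col4a2 2645 and 1984 against 2064 and 1687. Col6a1 had 495 and 477 CPM against 386 and 831, Col6a2 328 and 334 against 276 and 591, and Col6a3 138 and 229 against 132 and 207. Col18a1 had 1532 and 1445 CPM against 1514 and 954. Their log2 fold changes lay between -0.38 for Col3a1 and 0.47 for Col1a2, with adjusted p-values of at least 0.971. The difference between the D12 and D6 effects passed for 0 of 40 genes, where 0.604% of all genes passed (0.0940% higher and 0.510% lower), and 8 had an unadjusted p under 0.05 (8.88% of all genes). DESeq2 called 1.89% of all genes in that test and 2 collagen genes, chosen here after their values were seen: Col14a1, whose effect went from lower at D6 to higher at D12 (difference 3.25), and Col22a1, whose effect was smaller at D12 (difference -1.60).

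**Figure D5:**
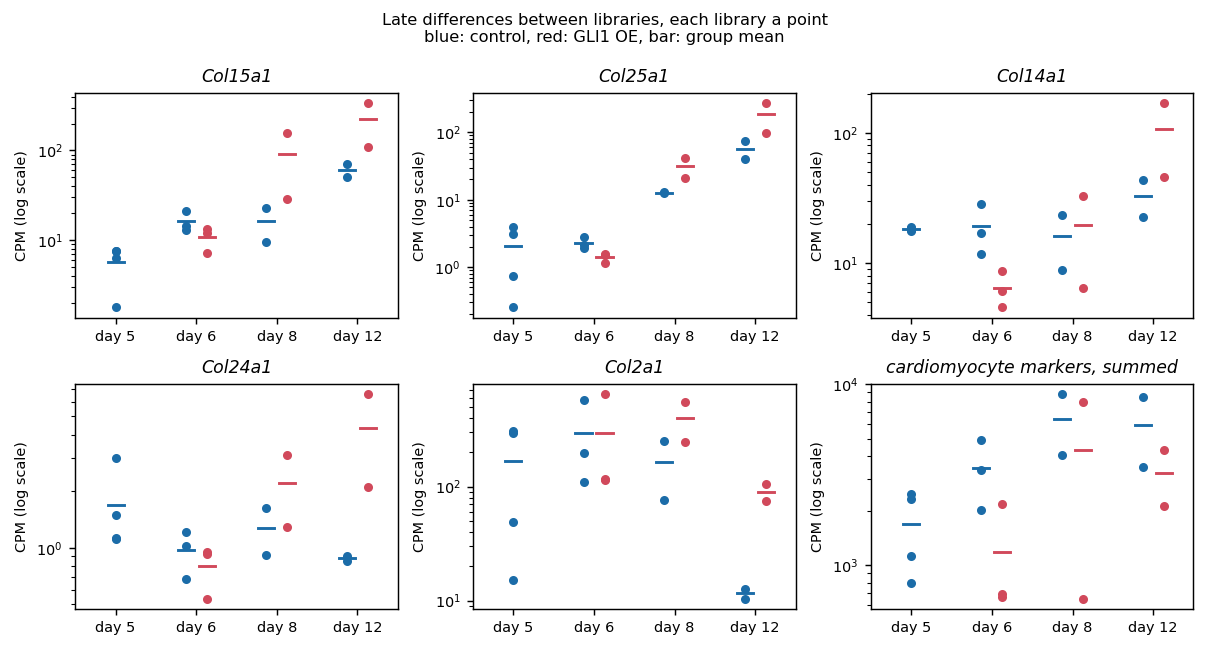
Level in CPM on a log axis of 5 collagen genes and of the summed cardiomyocyte markers by day, each library as a point, controls in blue, GLI1 OE in red, bars at group means. At D12 the Col2a1 points are 10.4 and 12.7 in controls and 74.2 and 105 with GLI1, while for Col15a1, Col25a1, Col14a1 and Col24a1 the upper red point, library 20, stands above the rest.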

How the data were processed

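PolyA RNA was measured in 18 libraries of 7 groups. The authors deposited unnormalized counts of reads for each gene symbol, TPM values for the D5 libraries, and tables of log2 fold changes with p-values for D6, D8 and D12. Per the labels' protocols, TruSeq v2 libraries gave stranded single-end reads of 50 bases. Aligner, counting tool, build and strand setting were not stated in the labels or headers, so overlapping and antisense genes are uncertain. Count columns carry day, condition and a library number, and libraries are named by these.

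The count model was fitted with edgeR 4.0.16 (R 4.3.3): TMM scaling, a minimum count of 10 in the filter, a robust quasi-likelihood fit of all 18 libraries with 1 coefficient per group, and Benjamini-Hochberg adjustment over 14892 genes with calls under 0.05. DESeq2 1.42.0 and limma 3.58.1 (voom), other scaling, no filter, fewer samples, 1 library left out and a block of adjacent library numbers were alternatives. Deviations of same-day control and GLI1 OE libraries from their group means correlated across genes at 0.62, 0.45 and 0.52 within the adjacent D6 pairs, so the numbers pair the D6 libraries. At D12 the correlation was -0.23 within adjacent numbers and 0.23 across them, so adjacent numbers do not establish pairs there. A block with the D12 pairs crossed was also run. The labels state no pairing. TPM per day was recomputed from lengths implied by the D5 counts and TPM. The fit was tested on simulated data with changes between the D6 groups among 14736 genes. It recovered 16% of genes changed 1.5-fold, 56% of those changed 2-fold and 82% of those changed 4-fold. The simulated libraries were not paired, and no changes at D8 or D12 were simulated. Values in every library are given for the best known chains, for members called between GLI1 OE and control, and for the 4 largest called rises and falls per time comparison with a mean of at least 1 CPM. Members, classes and lists were chosen with earlier results of these data known. The labels give no batch or date.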

Additional observations from a re-analysis of the deposited data

Results flagged for a closer look

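Among the 4 D5 control libraries, 3 collagen genes had a single library apart from the rest by Dixon's test, which flags about 1 in 20 groups by chance. Col4a6 was at 98.5 CPM in library 3 against 80.5 to 82.2 in the others. Col8a2 was at 0.422 CPM in library 4 against 1.32 to 1.45. Col23a1, a transmembrane collagen, was at 62.5 CPM in library 4 against 6.41 to 11.4.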

How the results depend on the processing

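The collagen counts at D6 under GLI1 changed with the setting. Against 1 in the fit of all libraries, DESeq2 called 4, DESeq2 size factors 2, the D6 libraries alone 10, and these with the replicate block 25; the replicate block in the fit of all libraries called 1, and that with the D12 pairs crossed 2, while leaving out libraries 11 and 12 called 0. Leaving out 1 D6 library called 0 to 1. For control D6 against D5, where 0 were called, DESeq2 called 5, limma-voom 2, DESeq2 size factors 1, the groups compared alone 1, D5 libraries 1 and 2 summed 2, and leaving out 1 library 0 to 3. For D8 against D6 in controls, 12 became 2 to 11 without 1 library and 7 without libraries 11 and 12. For D12 against D8, 13 became 21 with the groups compared alone and 8 to 10 without 1 library, and for D8 under GLI1, 0 became 1 without library 14 and stayed 0 without any other; D12 against D5 gave 25 to 33. For the difference of D8 and D6 effects 0 became 1 with the groups compared alone and 7 with the replicate block added there. For that of D12 and D6 effects 0 became 2 with DESeq2, 2 with the groups compared alone, 3 with the block added there and 1 with the D12 pairs crossed. Over all genes, the D6 count of 616 became 1030 with DESeq2, 1254 with the D6 libraries alone, 4576 with the block there and 249 without libraries 11 and 12, and at D8 and D12, from 0, DESeq2 called 40 and 14, and limma-voom called 1 at D12. The interaction counts of 94 (D8) and 90 (D12) became 233 and 281 with DESeq2, 415 and 268 with the block and only the groups compared, and 55 and 52 without libraries 11 and 12, and the second became 208 with the groups compared alone. Without 1 library the counts over all genes went as far as 330 at D6, 49 at D8, 5 at D12, 48 and 12 for the interactions, and for the steps between days 1561 of 2738, 2761 of 5178 and 3492 of 5411. The replicate block was not run for comparisons of days, since numbers pair libraries only within a day. No alternative reversed a called value. The cause of these changes was not tested. Total counts were 24842624 to 26184339 at D5 and at most 22608134 on later days, so depth went with day in comparisons with D5. Depth limits mainly genes near or under 1 CPM, such as Col4a3, Col4a4, Col6a4 and Col17a1.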
